A study of Mus musculus with 617 samples.

Results

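The simple epithelial keratins described here are Krt7, Krt8, Krt18 and Krt19, 4 of the 43628 genes in each deposited table, found by their Ensembl gene identifiers in all 4 tables. They were chosen by their symbols with their measured FPKM levels in these cells already known, so the levels and differences of the 4 genes are given as a description, without a test. RNA of 617 single mouse cells was sequenced by SMART-seq2, a full-length single-cell method, and each value is an FPKM, a count of fragments scaled to transcript length and to the fragments of the cell. The cultured cells came from 1 female and 1 male embryonic stem (ES) cell line of a cross between CAST/EiJ males and C57BL/6J females, so sex and line are the same factor. ES cells were grown in 2i with LIF, the ground-state medium (60 female and 51 male cells), or in serum with LIF (68 female and 52 male). Epi cells, epiblast-type stem cells, were derived from both lines with Activin A and FGF2 (79 female and 63 male), and a separate female Epi culture was kept for 7 passages (41 cells). Motor neuron cultures were made through embryoid bodies with retinoic acid and the smoothened agonist SAG, a procedure that also yields interneurons (39 female and 35 male). Embryo cells were labelled E3.5 inner cell mass (ICM, 23 cells) and E4.5 epiblast (23 cells), both from the same cross and with no sex given, and E5.5 epiblast from C57BL/6J parents (20 female and 63 male). Each labelled cell type, line and stage is therefore a single sample of many cells, and only the 2 lines repeat a culture state.

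Keratins are intermediate filament proteins that assemble only as pairs of a type I and a type II chain. Krt8 and Krt7 are type II chains, and Krt18 and Krt19 are type I chains. The pair of Krt8 and Krt18 is the founding filament of simple, single-layered epithelia, and in the mouse embryo it is known for its appearance in the trophectoderm, the outer cell layer of the blastocyst. Krt7 and Krt19 are added in many ductal, glandular and trophoblast epithelia. Neurons use other intermediate filaments.

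Krt8 (ENSMUSG00000049382, chr15:101996698-102004482, minus strand, GRCm38), Krt18 (ENSMUSG00000023043, chr15:102028180-102032027, plus strand) and Krt7 (ENSMUSG00000023039, chr15:101411043-101430313, plus strand) lie on chromosome 15. Krt19 (ENSMUSG00000020911, chr11:100140810-100148665, minus strand) lies on chromosome 11. All 4 are protein-coding. Krt7 overlaps the antisense gene Gm671, and Krt8 overlaps the lincRNA Gm36026, each on the opposite strand. Strandedness of the libraries is not given in the sources used here, so reads of these partners cannot be told apart from keratin reads where they overlap.

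Promoter sequences are shown for the 3 members on chromosome 15, because the promoter set used here had no entry for Krt19. The sequences are RefSeq's (GRCm38.p6), 5′ to 3′ on the strand of the gene, and run from 250 bases before the RefSeq start to the last base before the first exon of a protein-coding GENCODE transcript. Capitals mark matches, on either strand, to the motifs spelled out in the next paragraph.
Krt8 (chr15:102004483-102004592, minus strand): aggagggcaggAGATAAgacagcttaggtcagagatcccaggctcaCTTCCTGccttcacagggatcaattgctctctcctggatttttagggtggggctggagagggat
Krt18 (chr15:102027966-102028179, plus strand): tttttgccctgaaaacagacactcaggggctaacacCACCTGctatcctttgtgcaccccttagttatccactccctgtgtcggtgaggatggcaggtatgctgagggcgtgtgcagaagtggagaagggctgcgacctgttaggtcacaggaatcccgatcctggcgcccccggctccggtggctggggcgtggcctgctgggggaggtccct
Krt7 (chr15:101412153-101412401, plus strand): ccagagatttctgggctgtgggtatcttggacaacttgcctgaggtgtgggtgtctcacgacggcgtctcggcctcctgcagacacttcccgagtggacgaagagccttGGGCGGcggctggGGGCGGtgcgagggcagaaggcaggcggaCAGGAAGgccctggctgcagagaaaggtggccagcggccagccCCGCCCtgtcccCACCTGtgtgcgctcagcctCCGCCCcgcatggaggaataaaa

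Over the full 250 bases, the E box searched (CAGGTG) was present in all 3 promoters, at 214 bases before the RefSeq start in Krt18, at 44 in Krt7 and, in Krt8, in the stretch that is not printed. It was present in 17.2% of the 32851 promoter windows of the same length. The GC box (GGGCGG) occurred 4 times in Krt7 and in neither of the other two, against 32.7% of all windows. An Ets motif (CAGGAAG) was found in Krt8 and Krt7, and in 10.8% of all windows. A GATA motif (AGATAA) was found in Krt8, and in 9.99% of all windows. None of the 3 windows held the TATA box searched (TATAAA), present in 12.4% of all windows. None held the AP-1 motif (TGANTCA), present in 6.75%. No motif match overlapped another. These matches are a description of letters only.

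Cells had a median of 8122 to 10840 genes at 1 FPKM or more per group, and read depth per cell is unknown because the values are not counts. A cell is called positive below at 1 FPKM or more, and intervals on shares are exact 95% Clopper-Pearson intervals that cover counting error only. Several groups hold cells that go against or beyond their label. In the female Epi culture, Zfp42, a marker of the naive state that Epi cells lose, averaged 72.5 FPKM with 98.7% of cells positive, against 0.0687 FPKM and no positive cell in the male Epi culture and 7.32% of cells after 7 passages. Results on Epi cells are therefore given per culture. Motor neuron cultures carried the neuronal tubulin Tubb3 in 94.9% of female and 100% of male cells, and also the endoderm factor Sox17 in 48.7% and 91.4%. The trophectoderm factor Gata3 was positive in 82.6% of cells labelled E3.5 ICM and 87.0% of cells labelled E4.5 epiblast. Afp, a visceral endoderm gene, was positive in 100% of female and 82.5% of male cells labelled E5.5 epiblast.

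**Figure D1:**
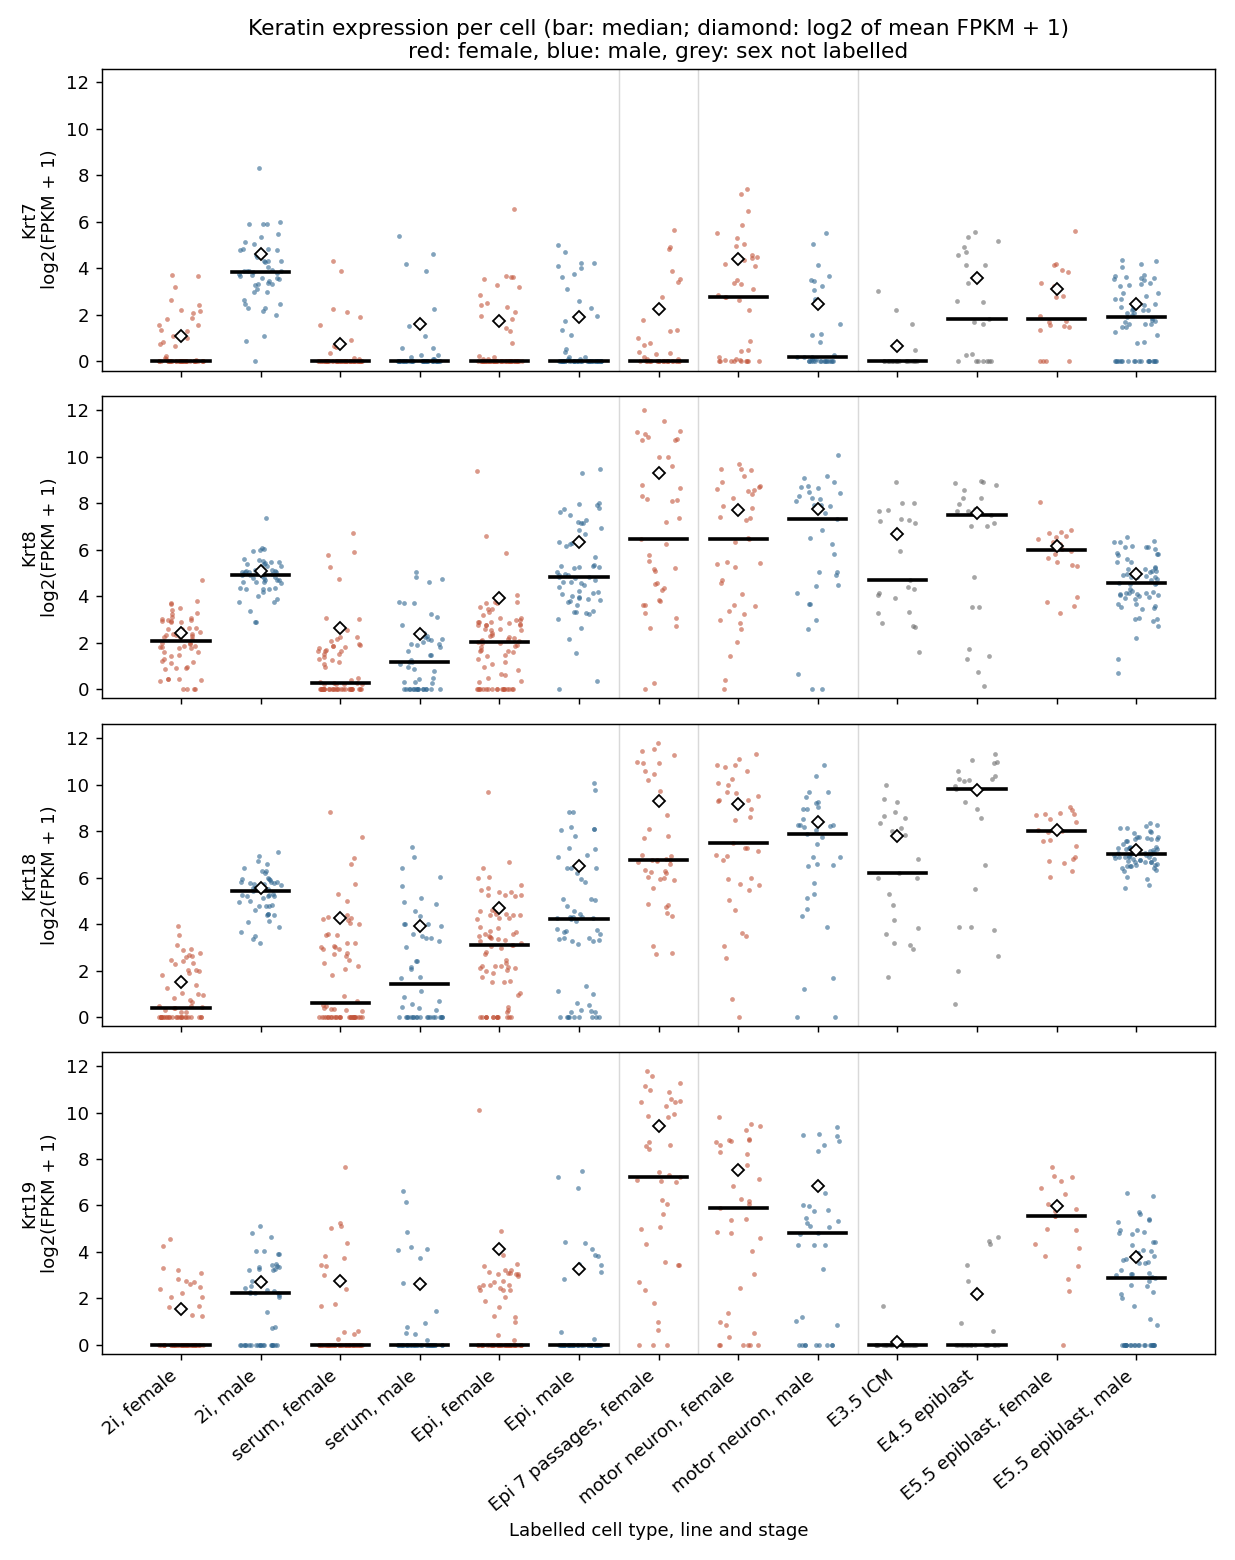
Level of each keratin per cell as log2(FPKM + 1), by labelled cell type, line and stage (points: cells; bars: medians; diamonds: log2 of the mean FPKM + 1). Krt8 and Krt18 were low in female 2i and serum cells, intermediate in male 2i cells and highest in the 7-passage Epi, motor neuron and E4.5 groups, and Krt19 was almost undetected at E3.5.

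Krt8, the main type II chain, varied widely between groups. By group mean it stood highest in the 7-passage Epi culture (639 FPKM), then in male (212) and female (208) motor neuron cultures, E4.5 (190) and E3.5 (101.5). Male Epi (79.2), female E5.5 (71.1), male 2i (33.1) and male E5.5 (30.3) followed. The lowest levels were in female Epi (14.1), female serum (5.18), female 2i (4.31) and male serum (4.19). Neighbours in this order overlapped in the range of their cells, and the 2 motor neuron cultures were 0.03 apart on the log2 scale. The groups come from 4 tables. The median FPKM sum per cell ran from 5.12e+05 at E4.5 to 1.48e+06 in male motor neuron cultures. The orders of group means given for each keratin are not corrected for this.

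Krt18, the partner of Krt8, followed a similar order with other leaders. Its mean was highest at E4.5 (864 FPKM), then in 7-passage Epi (620), female (573) and male (334) motor neuron cultures, female E5.5 (265.7), E3.5 (219) and male E5.5 (146.9). Below these came male Epi (88.9), male 2i (45.6), female Epi (24.8), female serum (18.3) and male serum (14.3), and female 2i was lowest at 1.83 FPKM. As for Krt8, the cells of neighbouring groups overlapped in range.

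Krt19, an unusually short type I keratin, was the most restricted of the type I chains. It averaged 676 FPKM in 7-passage Epi, 186 and 114.9 in female and male motor neuron cultures, and 61.2 in female E5.5 cells. All other groups were below 20 FPKM on average, and E3.5 was lowest at 0.0960 FPKM with 1 of 23 cells positive (4.35%, interval 0.11% to 21.9%).

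Krt7, the second type II chain, had the lowest mean of the 4 in most groups. Its mean was highest in male 2i cells (23.8 FPKM), female motor neuron cultures (20.2), E4.5 (11.2) and female E5.5 (7.67). In the other 9 groups it averaged between 0.565 FPKM at E3.5 and 4.52 FPKM in male motor neuron cultures. Krt7 was thus the only member with its highest mean in an ES cell group.

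The ES cells of the 2 lines differed in 2i. In the female 2i culture Krt8 ran from 0 through a median of 3.24 to 24.7 FPKM, and in the male 2i culture from 6.34 through 29.02 to 165 FPKM. Krt18 ran from 0 through 0.325 to 14.1 FPKM in female cells and from 8.18 through 42.3 to 138.3 FPKM in male cells. Every male cell carried both chains, 51 of 51 (interval 93.0% to 100%), against 20 of 60 female cells (33.3%, interval 21.7% to 46.7%). For Krt18 the ranges met at their edges, with 2 of 60 female cells at or above the lowest male cell, and for Krt8 they overlapped more, with 17 of 60. Krt7 had a median of 0 in female and 13.5 FPKM in male 2i cells, and was positive in 26.7% and 96.1% of cells. Krt19 differed less, with 31.7% of female and 56.9% of male cells positive.

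The means of male over female 2i cells were 20.9-fold for Krt7, 7.68-fold for Krt8, 24.99-fold for Krt18 and 2.81-fold for Krt19. On the log2(mean FPKM + 1) scale these were differences of 3.54, 2.68, 4.04 and 1.14, so all 4 members passed a log2 ratio of 1, which 4.77% of 13152 genes passed in this comparison. With 1 culture per line the comparison has no test. Within the male line, the lower and the higher run of title numbers, which the labels do not explain, gave Krt8 means of 31.7 and 34.1 FPKM and Krt18 means of 46 and 45.4 FPKM. In female 2i cells the runs gave 2.74 and 5.88 FPKM for Krt8 and 1.36 and 2.29 FPKM for Krt18. One male cell held the highest value of all 4 keratins, and without it the Krt7 mean of the male culture was 17.9 FPKM.

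Many markers of other lineages also differed between the 2i cultures. Sox17 was positive in 47.1% of male and 6.67% of female 2i cells, and the summed level of 12 endoderm markers had a median of 11.3 FPKM (0 to 119.5) in male and 2.43 FPKM (0 to 17.9) in female cells, with Afp at or near 0 in both. Of 12 endoderm markers, 9 had the higher mean in male and 2 in female cells. Of 12 trophectoderm markers, 8 had the higher mean in male and 4 in female cells, the latter with Cdx2 (6.82 FPKM in female and 4.12 in male cells). The parietal endoderm, mesoderm, decidua and epidermis lists also had more genes higher in male cells. Neuron markers went the other way, with 2 of 12 higher in male and 10 in female cells, and pluripotency markers with 4 and 6 of 10. Over all genes the median log2 difference of male over female was 0.037. Across the 51 male cells the sum of Krt8 and Krt18 had a Spearman rho of 0.44 with the parietal endoderm markers, 0.22 with the endoderm markers and 0.21 with the trophectoderm markers. Their part in the keratin difference was not tested.

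In serum the 2 lines lay closer together. Krt8 had a median of 0.1996 FPKM in female cells (0 to 104.8) and 1.25 FPKM in male cells (0 to 31.5), and the means of 5.18 and 4.19 FPKM rested on a few high cells. Krt18 had medians of 0.541 and 1.72 FPKM with highest cells of 454 and 158 FPKM. Both chains were found together in 24 of 68 female cells (35.3%) and 21 of 52 male cells (40.4%), a share close to that of female 2i cells and far from that of male 2i cells. None of the 4 members passed a log2 ratio of 1 for male over female in serum, which 4.65% of 13272 genes did. In male serum cells the lower run of 13 cells averaged 3.505 FPKM and the higher run of 39 cells 17.9 FPKM for Krt18.

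By culture means, the difference between serum and 2i went in different directions in the 2 lines for Krt8, Krt18 and Krt19. In the male line serum minus 2i was -3.04 for Krt7, -2.72 for Krt8, -1.61 for Krt18 and -0.06 for Krt19 on the log2 scale. In the female line Krt18 was higher in serum by 2.77 and Krt19 by 1.18, Krt8 stood at 0.22 and Krt7 at -0.34. Without the highest Krt8 cell of each female culture, the Krt8 means were 3.69 FPKM in serum and 3.96 FPKM in 2i. The direction of Krt8 in the female line thus rested on single cells. Averaged over the lines, the limma estimates were -1.69 (SE 1.18) for Krt7, -1.25 (SE 1.03) for Krt8, 0.58 (SE 1.27) for Krt18 and 0.56 (SE 0.49) for Krt19. Their median was -0.35, and the median over all 15504 genes tested was 0. It was 0.61 without the male 2i culture.

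The Epi cultures separated by line and passage. Krt8 had a median of 3.10 FPKM in female Epi cells (0 to 674), 27.7 FPKM in male Epi cells (0 to 721) and 87.0 FPKM in the 7-passage female culture (0 to 4186). Krt18 medians were 7.51, 17.7 and 107 FPKM in the same order, with highest cells of 821, 1069 and 3558 FPKM. Both chains were positive in 43 of 79, 47 of 63 and 39 of 41 cells. The share of cells with the Krt8 and Krt18 pair was thus lowest in the culture that kept Zfp42. The 7-passage values come from a table normalised on its own, so levels set across the tables include any difference in processing.

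Among the Epi cultures, Krt8 most often stood without Krt18 in the male one. Of 63 cells, 14 were positive for Krt8 alone and 0 for Krt18 alone, whereas 11 female Epi cells had Krt8 alone and 18 had Krt18 alone. Krt19 was positive in 29 of 79 female, 12 of 63 male and 36 of 41 7-passage cells. In the 7-passage culture its median was 150 FPKM, against 0 in both other Epi cultures. Krt7 was positive in 16 of 79, 16 of 63 and 10 of 41 cells, so it did not share the high level of the other 3 keratins after 7 passages (mean 3.79 FPKM).

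The female Epi means were carried by 1 cell, which held the highest value of all 4 keratins: 93.8 FPKM of Krt7, 674 of Krt8, 821 of Krt18 and 1115 of Krt19. It supplied 85.5% of the summed Krt19 of the culture and 60.6% of the Krt8. Without it the female means were 5.61 FPKM for Krt8, 14.6 for Krt18, 2.43 for Krt19 and 1.21 for Krt7. Male means without the highest cell of each gene were 68.8, 73.1, 6.02 and 2.32 FPKM. Male over female, Krt8 and Krt18 passed a log2 ratio of 1 (2.41 and 1.80), as did 10.7% of 14356 genes, and Krt7 (0.16) and Krt19 (-0.85) did not. Without the highest cell of each culture the differences were 3.40 for Krt8, 2.25 for Krt18, 0.59 for Krt7 and 1.03 for Krt19, so the direction of Krt19 rested on that female cell.

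Epi against serum gave limma estimates of 0.66 (SE 1.18) for Krt7, 2.62 (SE 1.03) for Krt8, 1.49 (SE 1.27) for Krt18 and 1.03 (SE 0.49) for Krt19. By line, Krt8 was higher by 1.29 in the female and 3.95 in the male line. Krt18 was higher by 0.42 and 2.55. In the female line Krt19 was at 1.40 and Krt7 at 1.00. Without the highest cell of the female Epi culture, the female line was at 0.10 for Krt8 and -0.31 for Krt18. Krt19 was then at -0.96 and Krt7 at 0.39. The female serum culture also held high cells. Without the highest cell of each gene in both female cultures, Krt8 was at 0.50 and Krt18 at 0.29. Krt19 was then at -0.13 and Krt7 at 0.63. The direction of Krt19 in the female line thus rested on single cells. The median of the 4 limma estimates was 1.26, against 0.12 over all genes. With the 7-passage culture in place of the first female Epi culture the estimates were 5.32 for Krt8, 3.78 for Krt18 and 3.66 for Krt19.

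Several marker lists moved with the keratins within the Epi cultures. In male Epi cells the sum of Krt8 and Krt18 had a Spearman rho of -0.61 with the mesoderm markers. It was 0.34 with the endoderm and 0.68 with the epidermis markers (n = 63, lists as mean log2(FPKM + 1)). All 10 mesoderm markers averaged at least 1 FPKM in that culture, with sums of 61.5 to 3711 FPKM. In the 7-passage culture rho was 0.68 with epidermis, 0.54 with trophectoderm, 0.52 with parietal endoderm and 0.47 with endoderm and 0.38 with mesoderm markers (n = 41), and 0.39 with the number of genes detected. These are descriptions across cells of 1 culture, and the part of cell state or depth was not tested.

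Motor neuron cultures carried 3 of the 4 keratins at far higher levels than serum ES cells in both lines. Krt8 had a median of 87.5 FPKM in female cells (0 to 835) and 161 FPKM in male cells (0 to 1084). Krt18 had medians of 176 FPKM (0 to 2540) and 233.5 FPKM (0 to 1837), and Krt19 of 58.3 FPKM (0 to 897) and 27.4 FPKM (0 to 664). Both Krt8 and Krt18 were positive in 36 of 39 female and 31 of 35 male cells. The ranges of these genes overlapped those of serum cells, since both states held cells at 0.

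On the log2 scale Krt8 was higher than in serum by 5.08 in the female and 5.36 in the male line, Krt18 by 4.89 and 4.45, and Krt19 by 4.81 and 4.23. The limma estimates were 5.22 (SE 1.03), 4.67 (SE 1.27) and 4.52 (SE 0.49). Krt7 was higher by 3.65 in the female line and by 0.87 in the male line, with an estimate of 2.26 (SE 1.18). The median of the 4 was 4.60, against 0.71 over all genes tested. Over 18 alternative settings the difference lay between 4.404 and 5.46 for Krt8, 3.83 and 5.16 for Krt18 and 3.70 and 4.87 for Krt19.

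In motor neuron cultures the medians of Krt8, Krt18 and Krt19 were lowest in cells with few endoderm markers. In female cells with 0 to 3 of 12 endoderm markers (21 cells) the medians were 16.3 FPKM for Krt8, 60.4 for Krt18 and 1.55 for Krt19. In female cells with 4 to 7 markers (7 cells) they were 374, 639 and 77.5 FPKM. In female cells with 8 to 12 markers (11 cells) they were 385, 813 and 318 FPKM. Male cells went the same way, from 2.82, 13.3 and 0.523 FPKM in 6 cells with few markers to 287, 303 and 62.8 FPKM in 15 cells with 8 to 12. The 14 male cells with 4 to 7 markers had medians of 73.3, 176 and 18.7 FPKM. These are ranges of a marker count and not cell types. Some female cells with few endoderm markers still reached 709 FPKM of Krt8 and 1716 FPKM of Krt18.

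Neuronal markers ran the other way. Female cells with 8 to 12 of 12 neuron markers (18 cells) had a Krt8 median of 24.1 FPKM against 301 FPKM in the 21 cells with 4 to 7. In male cells the medians were 43.8 FPKM (26 cells) and 408 FPKM (8 cells). Spearman rho between Krt8 and the number of neuron markers was -0.50 in female and -0.82 in male cells, and with the number of endoderm markers 0.64 and 0.72. For Krt19 rho with endoderm markers was 0.72 and 0.64, and for Krt18 0.62 and 0.65. Krt7 had no such relation, with rho of -0.18 and 0.07. Other lists also moved with the sum of Krt8 and Krt18. Its rho with the mean log2(FPKM + 1) of the endoderm list was 0.62 (female) and 0.83 (male). It was 0.60 and 0.73 with parietal endoderm, 0.29 and 0.56 with mesoderm, 0.23 and 0.55 with trophectoderm and 0.11 and 0.45 with decidua markers. Epidermis markers gave -0.08 and -0.17, and pluripotency markers -0.18 and 0.31.

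Most of the endoderm list was present in these cultures. Of its 12 genes, 11 averaged at least 1 FPKM in female and 10 in male cells, and the sums ran from 0 through a median of 69.1 to 2222 FPKM and from 4.81 through 868 to 4995 FPKM. Afp was at 0 in every male cell. The number of genes detected had a rho of -0.42 (female) and -0.34 (male) with the sum of Krt8 and Krt18, so keratin-high cells tended to have fewer genes detected. The part of cell type composition in the difference between motor neuron and serum cultures was not tested.

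**Figure D2:**
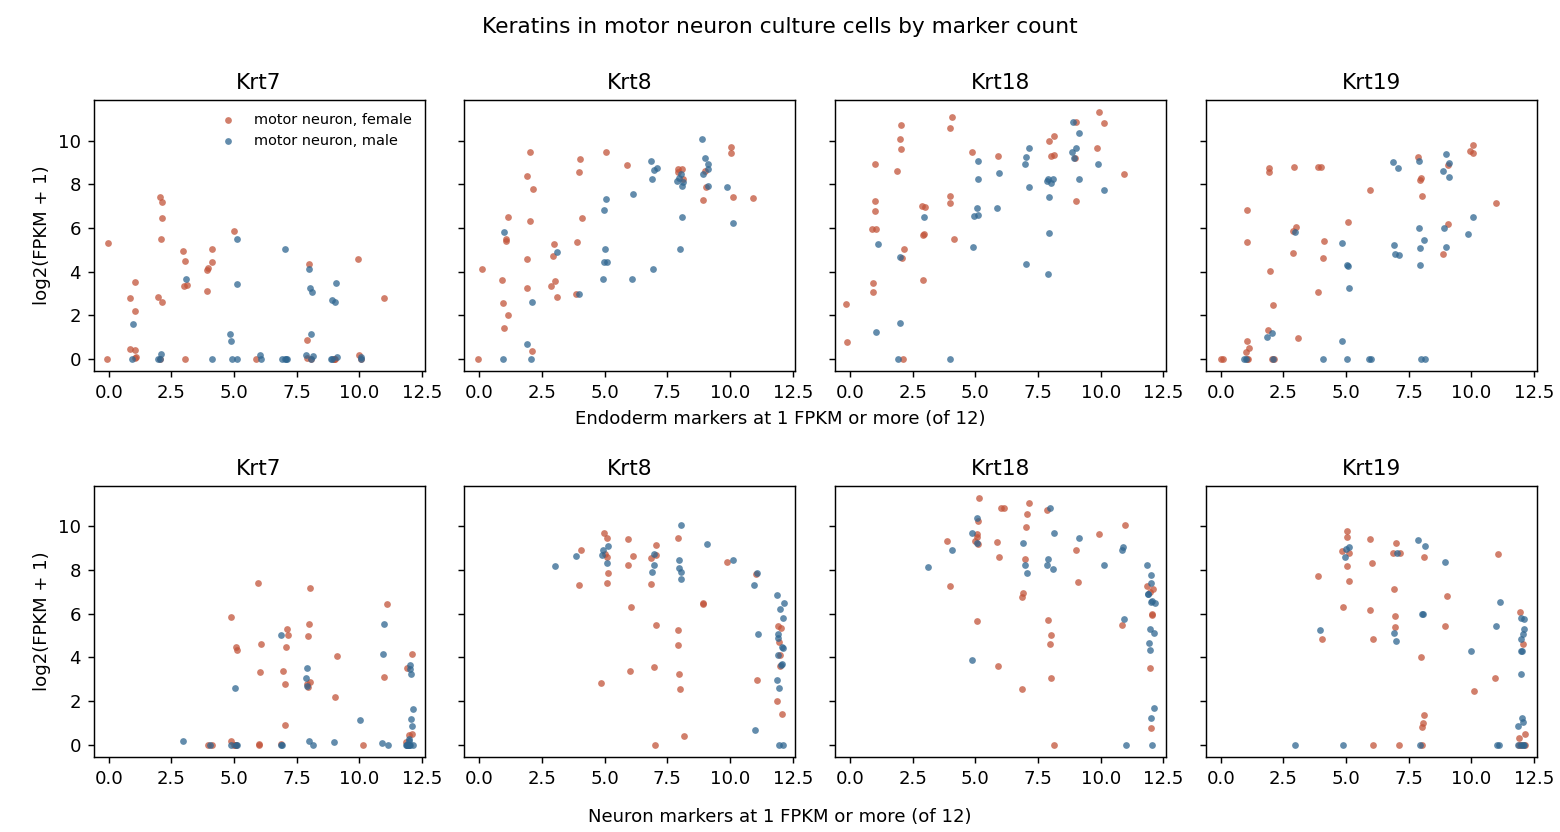
Each keratin per motor neuron culture cell as log2(FPKM + 1) against the number of endoderm markers (upper row) and neuron markers (lower row) at 1 FPKM or more, with slight horizontal jitter (red: female, blue: male). Krt8, Krt18 and Krt19 stand higher in cells with more endoderm markers (rho 0.62 to 0.72) and Krt7 does not (rho -0.18 and 0.07).

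The genes most like the sum of Krt8 and Krt18 across motor neuron cells, ranked among 11101 genes by the lower rho of the 2 lines, were led by 2200002D01Rik (0.75 in female and 0.86 in male cells). Col4a1 (0.72 and 0.76) and Col4a2 (0.66 and 0.78), the chains of basement membrane collagen IV, were among the first 10. The others were Tceal9, Uap1l1, Vamp8, Pcgf5, Vnn1, Slc2a1, a glucose transporter, and F3, tissue factor, with lower rho of 0.66 to 0.71. Krt19 ranked 29 and Krt7 ranked 3133 in this list.

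The keratin network list, 54 genes for other epithelial keratins, desmosome and junction proteins, filament linkers and epithelial regulators, split in 2 directions in motor neuron cultures. The list was put together with earlier results of these data known. A listed gene is called here at an adjusted p under 0.05 (limma, Benjamini-Hochberg over all genes) with a log2 difference of at least 1. Of 53 genes matched, 38 passed the filter of a mean of 1 FPKM, and 8 rose and 6 fell against serum. Over all 15504 genes 30.1% were called higher and 2.7% lower, 32.8% in either direction. Without the male serum culture 3 listed genes were called, and without the female one 4. Their median log2 difference was 0.29, below the 0.71 of all genes. Junction proteins and epithelial transcription factors were found on both sides: Jup, Tjp1 and Ovol2 rose, and Epcam, Cdh1, Grhl2 and Grhl3 fell.

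Dst, the linker dystonin, averaged 37.3 and 40.1 FPKM in female and male motor neuron cultures and 7.04 and 5.72 FPKM in serum, a rise of 2.43 (SE 0.47, limma adjusted p = 0.0107). Plec, the linker plectin, stood at 21.2 and 14.1 against 4.72 and 2.99 FPKM, a rise of 1.94 (SE 0.38, limma adjusted p = 0.0111). Dsc2, a desmosomal cadherin, stood at 4.29 and 5.05 against 0.553 and 0.516 FPKM, a rise of 1.88 (SE 0.38, limma adjusted p = 0.0126). These 3 genes were chosen as the largest called rises, and both motor neuron means stood above both serum means for each. Smaller rises were called for Fam83h (1.71), which is known to associate with keratin filaments, Jup (1.69), which codes for plakoglobin, Tchp (1.52), which codes for the keratin-binding trichoplein, Tjp1 (1.28) and Ovol2 (1.19). Dsp, the desmosomal plakin desmoplakin, was at 1.46 (SE 0.63, limma adjusted p = 0.114).

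Rab25, a GTPase of epithelial vesicle traffic, was at 0.963 FPKM in female cells and was listed at 0 in every male cell, against 14.3 and 22.6 FPKM in serum, with a fall of -3.76 (SE 0.45, limma adjusted p = 0.0035). Esrp1, the epithelial splicing regulator, stood at 1.70 and 1.08 against 12.8 and 10.1 FPKM, with a fall of -2.39 (SE 0.31, limma adjusted p = 0.00385). Grhl2, a transcription factor of epithelial junction genes, stood at 1.99 and 0.0373 against 6.32 and 6.82 FPKM, with a fall of -2.10 (SE 0.61, limma adjusted p = 0.0383). Epcam (-1.91), Cdh1 (-1.57), which codes for E-cadherin, and Grhl3 (-1.50) also fell. The keratins and these epithelial genes therefore stood in opposite directions between the same 4 cultures.

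Rab25 and Esrp1 were called in 18 of 18 alternative settings, and Jup in 17. Tchp was called in 7 of 18, and Fam83h and Ovol2 in 6 of 17. Under upper-quartile scaling, where the median over all genes was 0 in this comparison, the list had 2 genes higher and 6 lower. With cells rescaled to the same sum it had 4 higher and 6 lower. No called gene of the list changed direction under any setting.

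**Figure D3:**
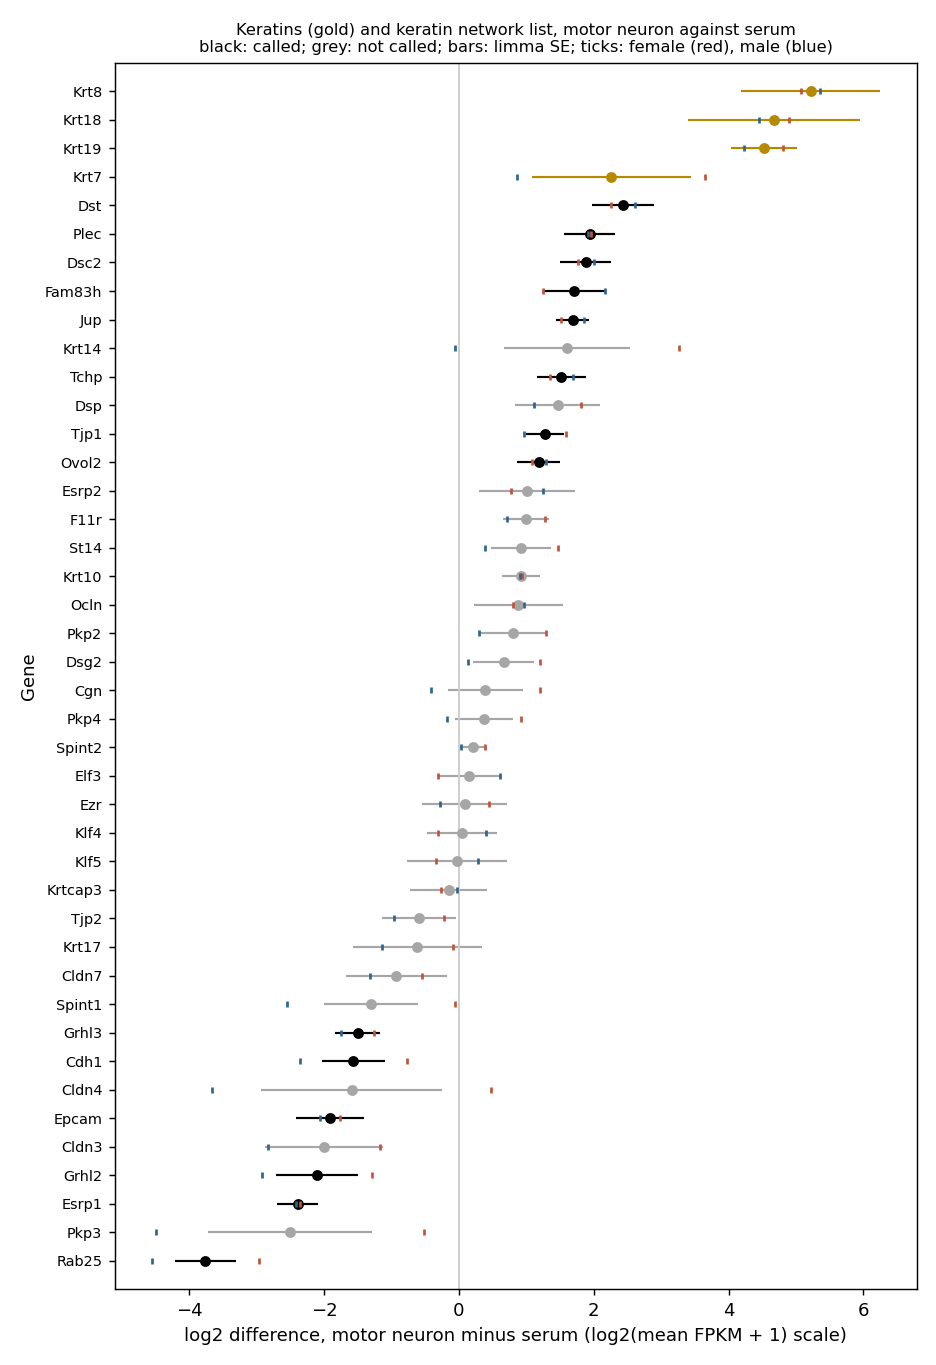
Log2 difference of motor neuron minus serum cultures for the 4 keratins (gold) and the 38 tested genes of the keratin network list (black: called; grey: not called), with limma SE as bars and each line's own difference as a tick (red: female, blue: male). Krt8, Krt18 and Krt19 lie between 4.52 and 5.22, above every listed gene, and Rab25 lies lowest at -3.76.

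In the other culture comparisons the keratin network list gave no call. For serum against 2i limma called 0 of 38 genes, with 10 at an unadjusted p under 0.05. Over all genes 0.00645% were called higher and 0.0129% lower, 0.0193% in either direction. The largest changes were Esrp1 at 3.19 (SE 0.31, limma adjusted p = 0.0601) and Cldn7, a claudin of tight junctions, at 2.73 (SE 0.74, limma adjusted p = 0.263), both higher in serum in both lines. For Epi against serum limma called 0 of 38, with 1 at an unadjusted p under 0.05. Over all genes 0.0322% were called higher and 0.00645% lower, 0.0387% in either direction. Klf5 stood at -1.64 and Klf4 at -1.58 (limma adjusted p = 0.727 for each), both Krüppel-like factors.

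Blastocyst cells covered a wide range of Krt8 and Krt18 levels. At E3.5 Krt8 ran from 2.02 through a median of 24.8 to 488 FPKM and Krt18 from 2.30 through 71.4 to 1010 FPKM. At E4.5 Krt8 ran from 0.102 through 178 to 500 FPKM and Krt18 from 0.454 through 889 to 2556 FPKM. Both chains were positive in 23 of 23 cells at E3.5 and 21 of 23 at E4.5, so the stages differed in level rather than in the share of positive cells. Krt7 was positive in 3 of 23 cells at E3.5 and 14 of 23 at E4.5, and Krt19 in 1 and 5.

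The means of E4.5 over E3.5 were 1.87-fold for Krt8, 3.94-fold for Krt18 and 19.8-fold for Krt7. On the log2(mean FPKM + 1) scale these differences were 0.90, 1.98 and 2.96, and Krt19 was at 2.06 from a level close to 0. Krt7, Krt18 and Krt19 passed a log2 ratio of 1, which 11.6% of 11893 genes passed. The stages are 1 sample each, and the ranges of the cells overlapped for every member. Cell titles of both stages begin with lateblast and differ in format between the stages, which the labels do not explain. Stage and title format therefore cannot be told apart.

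Trophectoderm markers, among other lists, moved with the keratins in blastocyst cells. Across the 23 cells of each stage the sum of Krt8 and Krt18 had a Spearman rho of 0.83 (E3.5) and 0.78 (E4.5) with the trophectoderm markers, and of -0.45 and -0.75 with the pluripotency markers. It was 0.70 and 0.74 with the epidermis list, of which 2 and 3 of 8 genes averaged at least 1 FPKM, and 0.61 and 0.74 with the decidua list, of which 2 of 12 did at each stage. Of 12 trophectoderm markers, 10 averaged at least 1 FPKM at E3.5 and 9 at E4.5, with sums from 20.6 through a median of 92.0 to 501.9 FPKM and from 15.2 through 240.9 to 806 FPKM. Cdx2, the factor that defines the trophectoderm, averaged 13.7 and 48.6 FPKM and was positive in 56.5% and 87.0% of cells. The rank correlation with the number of genes detected was 0.20 and 0.40. The part of trophectoderm cells in the difference between stages was not tested.

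**Figure D4:**
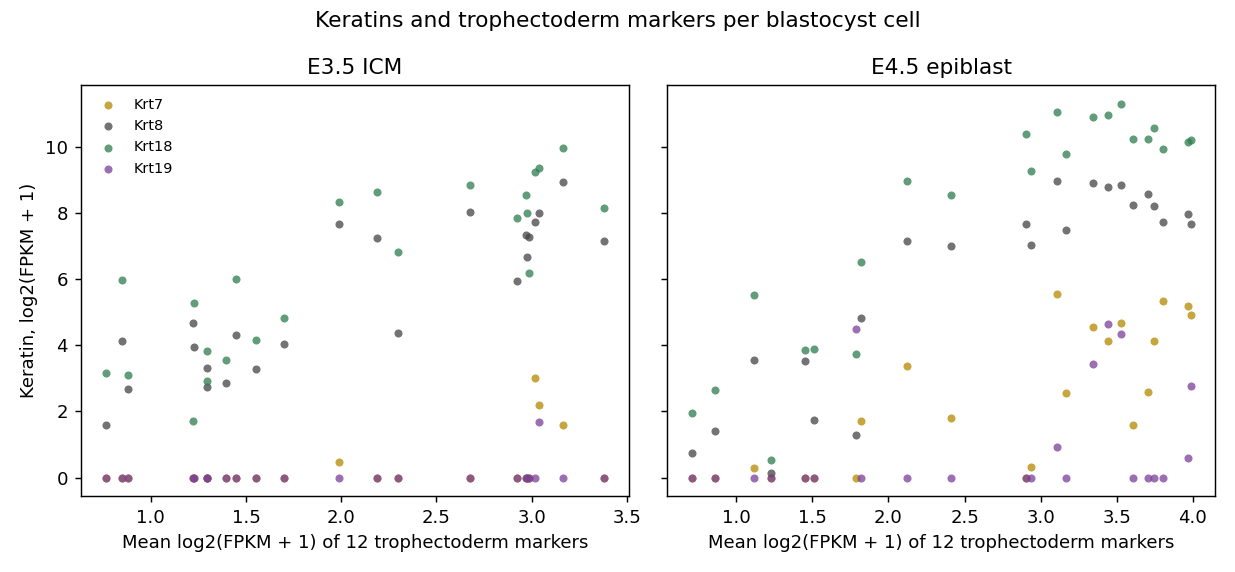
Keratin level per blastocyst cell as log2(FPKM + 1) against the mean log2(FPKM + 1) of 12 trophectoderm markers, for 23 E3.5 and 23 E4.5 cells (colours: keratins). Krt8 and Krt18 stand higher in cells with higher markers at both stages, and Krt7 appears mainly at E4.5 (14 of 23 cells).

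Cells that share the leading number in their title, which the labels do not explain, had similar keratin levels in part of the E4.5 group. The 4 cells of number 7 had Krt18 from 1948 to 2556 FPKM and Krt8 from 443 to 500 FPKM. The 2 cells of number 6 had Krt18 of 12.4 and 13.7 FPKM. The 7 cells of number 9 ran from 0.454 to 1187 FPKM of Krt18, so cells of this number were not alike. Outside number 7 the highest Krt18 was 1523 FPKM (number 10), below every cell of number 7. At E3.5 each of the 4 numbers held low and high cells, with a lowest Krt18 of 2.30 to 13.3 FPKM and a highest of 377 to 1010 FPKM.

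At E5.5 the keratin pair was present in nearly every cell and its range was narrower. Krt18 ran from 64.9 through 252.96 to 531 FPKM in female cells and from 46.2 through 127.4 to 322 FPKM in male cells. Krt8 ran from 8.63 through 63.2 to 265.7 FPKM and from 0.627 through 22.8 to 92.3 FPKM. Both were positive in 20 of 20 female and 62 of 63 male cells. The sexes overlapped widely for both genes.

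Krt19 was the member that separated the E5.5 sexes most. It was positive in 19 of 20 female cells (95%, interval 75.1% to 99.9%) and 40 of 63 male cells (63.5%, interval 50.4% to 75.3%), with medians of 45.9 and 6.33 FPKM. Female over male, the log2 differences were 2.17 for Krt19, 1.21 for Krt8, 0.85 for Krt18 and 0.66 for Krt7, so 2 of the 4 members passed a log2 ratio of 1, which 5.97% of 13434 genes passed. Each sex is 1 sample, and there is no test.

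Endoderm markers, among other lists, moved with the keratins at E5.5. All but 1 of the 12 endoderm genes averaged at least 1 FPKM in female cells and 10 did in male cells, and their sums ran from 256.5 through 2630 to 11140 FPKM in female and from 30.7 through 624 to 2979 FPKM in male cells. The rho of Krt8 plus Krt18 with the mean log2(FPKM + 1) of these genes was 0.55 in female and 0.66 in male cells. With the trophectoderm markers rho was 0.62 and 0.72. Pluripotency markers gave 0.44 and 0.52, positive where the blastocyst cells were negative. Mesoderm markers gave 0.38 and 0.45, epidermis markers 0.41 and 0.43, and parietal endoderm markers 0.32 and 0.16. Decidua markers gave 0.26 and -0.22, and neuron markers -0.58 and -0.20. The part of endoderm or other cells, or of their RNA, in the difference between sexes was not tested.

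Krt8 and Krt18 had a positive rank correlation across the cells of every group. Spearman rho across cells was 0.46 in female 2i (n = 60), 0.54 in male 2i (n = 51), 0.58 and 0.54 in female and male serum (n = 68 and 52) and 0.44 in female Epi (n = 79). It was 0.73 in male Epi (n = 63), 0.71 in 7-passage Epi (n = 41), 0.92 and 0.84 in female and male motor neuron cultures (n = 39 and 35), 0.90 at E3.5, 0.97 at E4.5 (n = 23 each), 0.91 in female and 0.75 in male E5.5 cells (n = 20 and 63). Within male 2i cells the value was 0.13 in the lower and 0.78 in the higher run of title numbers. In motor neuron cells it stayed between 0.83 and 0.96 in each run. The cells of a group belong to a single sample and their read depth is unknown, so these are descriptions.

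**Figure D5:**
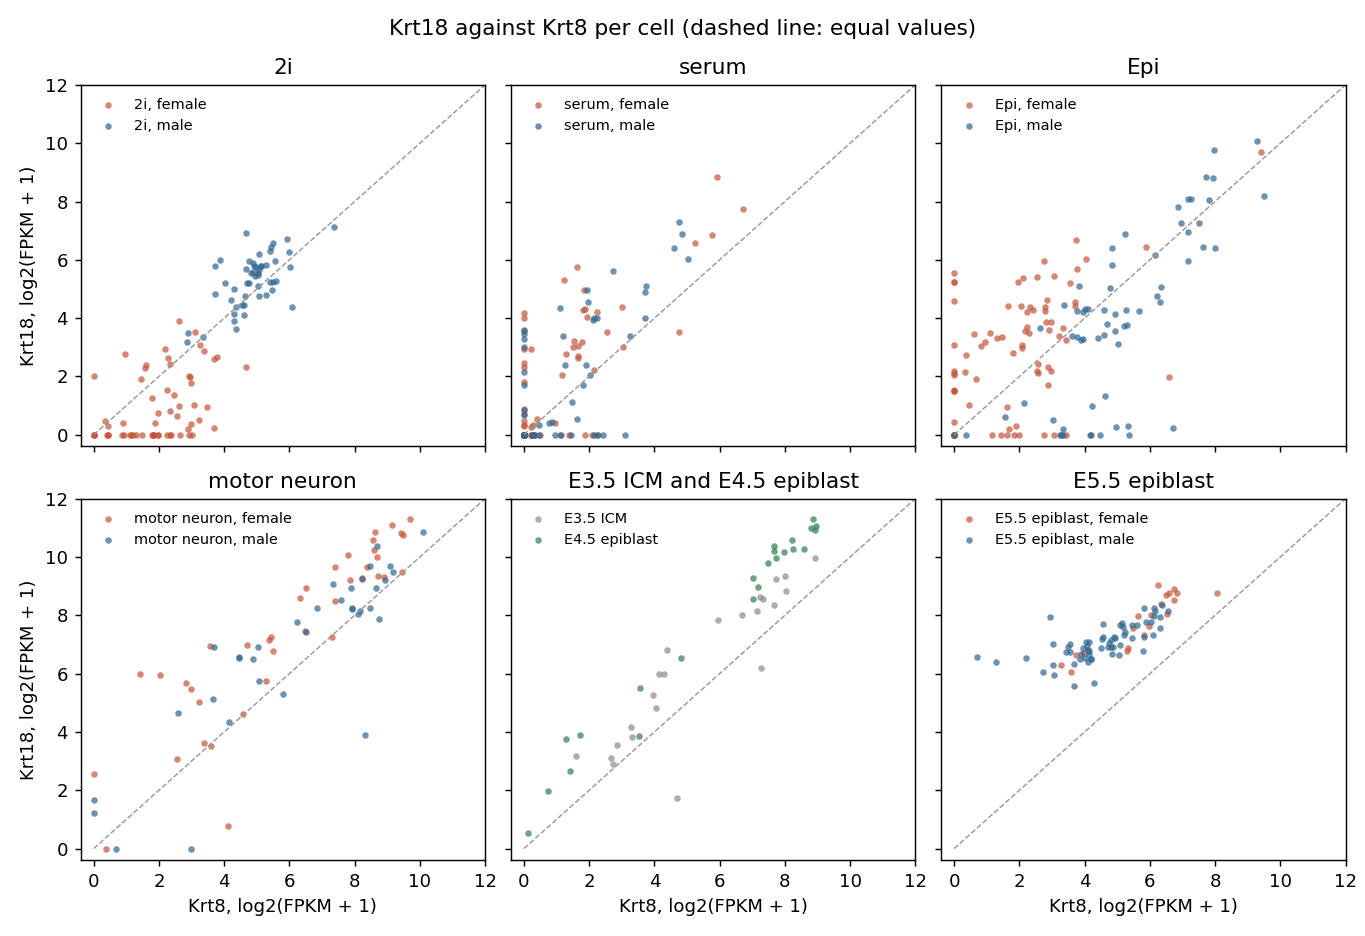
Krt18 against Krt8 per cell, both as log2(FPKM + 1), for 6 sets of groups, with the line of equal values dashed. The E4.5 and E5.5 cells lie above the line, male 2i cells lie around it, and many female 2i cells have Krt8 with little or no Krt18 (27 of 60 with Krt8 alone).

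Krt19 joined the pair in some groups and Krt7 in fewer. The rank correlation between Krt8 and Krt19 was 0.84 in 7-passage Epi, 0.74 and 0.60 in female and male motor neuron cultures and 0.77 and 0.61 in female and male E5.5 cells, against 0.14 in female 2i. Krt7 and Krt8 had a rho of 0.80 at E4.5 and 0.61 in 7-passage Epi, and of -0.09, 0.14, 0.14 and 0.04 in female motor neuron, male motor neuron, female E5.5 and male E5.5 cells. In female 2i 4 of 19 Krt19-positive cells carried both Krt8 and Krt18, which were found together in 20 of all 60 cells there.

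Type I chains (Krt18 and Krt19) exceeded type II chains (Krt8 and Krt7) in summed FPKM in most groups compared. Among cells with at least 10 FPKM of each type, the median ratio of type I to type II was 0.938 in male 2i (48 cells) and 1.09 in male Epi (36 cells). It was 2.09 in 7-passage Epi, 3.39 and 2.46 in female and male motor neuron cultures, 2.53 at E3.5, 4.05 at E4.5, and 4.51 and 4.68 in female and male E5.5 cells. Male serum stood at 2.08 (7 cells) and female Epi at 2.92 (12 cells). Female 2i and female serum had 0 and 5 such cells and were not compared. Every one of the 20 female and 57 male E5.5 cells compared had more type I than type II, against 21 of 48 male 2i cells. The source of the type I FPKM also varied: Krt19 supplied 52.2% of it in 7-passage Epi, 24.5% and 25.6% in motor neuron cultures, and 0.0438% at E3.5.

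Among all 54 keratin genes in the tables, the 4 members made up 99.1% to 99.6% of the summed keratin FPKM at E3.5, at E4.5 and in 7-passage Epi, and 95.2% to 97.7% in the motor neuron and E5.5 groups. In female 2i cells they made up 29.9%, and in male 2i cells 67.3%. Krt42, a type I keratin, was the highest of the others in both, and averaged 12.9 FPKM in female 2i cells. Krt42 averaged 39.6 FPKM in male 2i, 12.2 and 9.70 in serum and 13.1 FPKM in female Epi, and was positive in none of the 63 male Epi and 35 male motor neuron cells. The female Epi culture thus kept a Krt42 level within the range of the ES cell cultures.

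Across the 8 culture means of the first table, Krt8 and Krt18 had a Pearson r of 0.94, Krt18 and Krt19 of 0.90, and Krt7 and Krt8 of 0.65. Among 9912 genes averaging at least 5 FPKM, the genes most like Krt8 were Rabepk (r = 0.99), Tspan12, Fam104a, Klc4 and Nfe2l1. The genes most like Krt18 were Plgrkt (0.98), Sft2d2, Idnk, Ufsp1 and Timm10b, and those most like Krt19 were Tmem203 (1.00), Map7d1, Tmem38a, Dcxr and Csnk1g1. For Krt7 they were Mir7022 (0.93), Cd68, Slc16a6, Rnf135 and Ndufa7. These r rest on 8 points, 2 of each state, with the motor neuron cultures far from the rest for 3 of the keratins.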

How the data were processed

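Single-cell SMART-seq2 libraries were aligned and quantified by the authors to mm10 with STAR 2.4.1, Cufflinks and Cuffnorm 2.2.1, per the submitters' processing notes. The deposited values are FPKM per gene and cell in 4 tables, made by the authors. The annotation, the strandedness and the cell filters are not given in the sources used here. In 356 values a low line in the exponent was read as a minus sign. Gene symbols and coordinates came from GENCODE vM21 (GRCm38).

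The members and the gene lists were chosen with earlier results of these data known. Cells of a culture are not replicates, so the 8 cultures of the first table were the units. Their log2(mean FPKM + 1) was fitted per state in limma 3.58.1 (R 4.3.3, trend = TRUE), which left 4 residual degrees of freedom. Genes averaging under 1 FPKM were left out, and 15504 remained. The p-values measure the spread between 2 lines, and fold changes on this scale understate those of low genes. The procedure was tested on simulated data. The lines pair across states because each is 1 cell line. As a check, the female minus male difference of each gene was compared between pairs of states, and Pearson r lay between 0.0605 and 0.163. A fit with the line as replicate block was an alternative. Lines, sexes and stages were compared with a single sample on each side, without a test.

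Genes named in the text were the 4 members, the 3 largest called changes per direction of each list, the 2 largest changes where none was called, the 5 genes most like each member over cultures and the 10 most like Krt8 plus Krt18 over motor neuron cells, and marker genes as values. Other called genes, Dsp, Krt10, Krt14, Krt17, Krt20, Krt42 and the uncalled filament genes were named after their values were seen. Leaving out the highest cell was an alternative chosen after seeing the data.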

Additional observations from a re-analysis of the deposited data

Results flagged for a closer look

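In 3 cases the culture means of the female and the male line moved in opposite directions between serum and 2i. The difference between the lines was not tested, since each line has 1 culture per medium. Krt18 was higher in serum by 2.77 on the log2 scale in the female line and stood at -1.61 in the male line, a gap of 4.38 (female minus male). Krt8 was at 0.22 in the female and -2.72 in the male line, a gap of 2.93. The female direction of Krt8 rested on single cells. Without the highest cell of each female culture its means were 3.69 FPKM in serum and 3.96 FPKM in 2i. The female Krt8 median was also lower in serum, at 0.1996 against 3.24 FPKM. Krt19 was at 1.18 and -0.06, a gap of 1.24. The male 2i culture carried the higher value of each of these genes among the 2i cultures: 45.6 against 1.83 FPKM for Krt18, 33.1 against 4.31 for Krt8 and 5.46 against 1.94 for Krt19.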

How the results depend on the processing

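Leaving out 1 culture at a time moved the median log2 difference of the 4 keratins over -2.02 to 0.61 for serum against 2i (reversed at 0.61 without the male 2i culture), 1.00 to 1.57 for Epi against serum and 4.23 to 4.96 for motor neuron against serum. For serum against 2i it moved Krt7 over -3.46 to 0.0795 and Krt8 over -2.59 to 0.0931 (both reversed without the male 2i culture), and Krt18 over -1.44 to 2.60 and Krt19 over -0.0104 to 1.13 (both reversed without the female 2i culture). With the mean of log2 values over cells Krt18 was at -1.12 and Krt19 at -0.52 there. The median for Epi against serum was 0.90 with the mean of log2 values and 3.72 with the 7-passage culture, and for motor neuron against serum 4.19 with cells rescaled to the same sum and 3.76 with upper-quartile scaling. Genes called in the keratin network list for motor neuron against serum numbered 14 (8 higher, 6 lower), 9 with no low-value filter, 8 with upper-quartile scaling, 6 with only the 4 cultures compared, and 3 to 15 on leaving out 1 culture. Leaving out male serum cells gave 3, female serum cells 4, either line in 2i 8 and male motor neuron cells 9. Over all genes 5088 were called in that comparison (1647 to 5688 over the settings), 3 for serum against 2i (0 to 224) and 6 for Epi against serum (0 to 848). For serum against 2i the 0 calls became 1 with no filter, 1 with upper-quartile scaling, 1 with the 7-passage culture and 3 with the mean of log2 values, and stayed 0 on leaving out any 1 culture. For Epi against serum the 0 calls became 2 with the 7-passage culture and 0 to 1 on leaving out 1 culture (1 without the female Epi culture). The causes were not tested. With the line as replicate block the list had 0, 0 and 14 calls in the 3 comparisons, so the block changed no count. The highest cell alone took the female Epi mean of Krt19 from 2.43 to 16.5 FPKM. Of 156 shares at thresholds of 0.1, 5 or 10 FPKM, 58 lay outside the main interval, and of 162 alternative correlations 13 did. Read depth is unknown, so levels near 1 FPKM are imprecise.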

Other observations

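Several neuronal intermediate filaments rose in motor neuron cultures. Of 14 genes, 12 were tested and 7 were called higher than in serum (limma), with 0 lower, where over all genes 30.1% were called higher and 2.7% lower. Des (-0.66), Lmnb1 (-0.86) and Lmnb2 (-0.52) were on the lower side and not called, and Nes (1.97) and Nefh (0.96) were not called. Nefm, the medium neurofilament chain, averaged 277.2 and 554 FPKM in female and male motor neuron cultures and 0.891 and 0.307 FPKM in serum, a rise of 7.97 (SE 0.59, limma adjusted p = 0.00211). Nefl, the light neurofilament chain, rose by 6.81 and Prph, peripherin, by 5.44 on the log2 scale. Under upper-quartile scaling 6 were higher and 2 lower. Across motor neuron cells the mean log2(FPKM + 1) of this list was compared with the sum of Krt8 and Krt18. Spearman rho was -0.25 in female and -0.75 in male cells. The cells highest in one thus tended to be low in the other, more so in the male culture. Neither serum against 2i nor Epi against serum gave a call in this list (limma, 2 and 0 genes at an unadjusted p under 0.05).

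Female and male motor neuron cultures differed in other keratins. Krt14, a keratin of stratified epithelia, was the highest of them in the female culture at 10.7 FPKM. It was at 6.10 FPKM without its highest cell, which held 44.5% of the sum, below the 7.38 FPKM of Krt10. In the male culture Krt10 was highest at 5.92 FPKM. Krt17 averaged 3.96 FPKM with 64.1% of cells positive in the female culture and 0.149 FPKM with 2.86% in the male culture, and Krt20 averaged 5.14 and 0.605 FPKM. Each line has 1 motor neuron culture, so these differences have no test.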
